A study of Meriones unguiculatus and Mus musculus with 2 samples.

Results

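Genes of apoptosis, necroptosis and related forms of cell death were examined in RNA sequencing of skin wounds from the Mongolian gerbil (Meriones unguiculatus) and from the ICR mouse, an outbred laboratory stock, each wounded and sampled 3 days later. The set held 34 genes chosen by symbol from a deposited table of 41214 mouse gene entries: caspases, members of the BCL2 family, the apoptosome, inhibitor of apoptosis proteins, death receptor adaptors, the necroptosis kinases, gasdermins and the p53 axis. Each species had 1 library, so no difference below has a replicate check, a test or a p-value, and the values describe these 2 libraries only. The labels do not say how many animals stand behind a library. They give the tissue as dermis, and the epidermal keratin Krt1 was at 2469 FPKM in gerbil and 2471 FPKM in ICR. Other keratinocyte markers were not level and differed in both directions. Krt10 was at 268 FPKM in gerbil and 1107 FPKM in ICR, and Krt5 at 11792.5 FPKM in gerbil and 4284 FPKM in ICR. All 8 markers of dermal fibroblasts had a value in both libraries.

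Levels are FPKM, fragment numbers scaled for transcript length and library size. Sequencing depth is unknown. A gerbil value was read as that of an assembled gerbil sequence matched to a mouse gene, and the table gives an expectation value for each match, where 0 is the strongest. Of the 34 genes, 32 had a gerbil value and 29 of these had an expectation value of 0. Bik and Cdkn1a had no gerbil match. Differences are gerbil minus ICR of log2(FPKM + 1), and fold values use FPKM + 1 too, which makes differences of low genes look smaller than they are. A gene counted as measured if both values were listed and either reached 1 FPKM, which 31 of the 34 met. Bcl2 did not, at 0.84 FPKM in gerbil and 0.570 FPKM in ICR.

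Apoptosis is the ordered self-destruction of a cell by caspases, proteases that cut after aspartate. Its mitochondrial route is set by the BCL2 family: guardians such as MCL1 hold back the pore-forming effectors BAX and BAK, and BH3-only proteins release them. Cytochrome c then leaves the mitochondrion and builds the apoptosome with APAF1, which activates caspase 9. The death receptor route runs through FADD and caspase 8, and where caspase 8 is held off, RIPK1 and RIPK3 can turn to MLKL and necroptosis, a lytic death. In a healing skin wound, neutrophils, macrophages and, later, fibroblasts are removed largely by such programmes.

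Cytochrome c and gasdermin A are shown by sequence, because the reading of their values turns on mouse genes similar in sequence. Mouse Cycs (chr6:50562563-50566538, minus strand, GRCm38) encodes cytochrome c. The GENCODE M21 transcripts give its coding sequence as 315 bases without the stop codon, of which the first 300 are printed. Over all of them Gm10053 (chromosome 19, 24875686 to 24876634), annotated as protein-coding, has 0 differing bases, and the processed pseudogenes Gm13772 and Gm10108 have 2 each. Capitals mark the positions where either pseudogene differs, which are C115T and G116A in Gm13772 and G4A and G44A in Gm10108, with positions counted from 1 at the first coding base and the Cycs base given first.
Cycs: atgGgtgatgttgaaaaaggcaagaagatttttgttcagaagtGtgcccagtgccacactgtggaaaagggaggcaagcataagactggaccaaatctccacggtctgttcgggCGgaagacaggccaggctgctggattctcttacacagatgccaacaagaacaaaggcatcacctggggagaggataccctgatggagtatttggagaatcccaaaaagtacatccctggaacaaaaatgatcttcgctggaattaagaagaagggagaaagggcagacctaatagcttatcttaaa

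The mouse also has 3 neighbouring gasdermin A genes on the plus strand of chromosome 11. Gsdma lies at 98664351 to 98677708, Gsdma2 at 98646759 to 98657964 and Gsdma3 at 98626360 to 98638226. Their first 60 coding bases follow, with capitals where the 3 genes are not all alike.
Gsdma: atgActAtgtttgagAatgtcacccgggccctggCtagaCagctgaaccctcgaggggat
Gsdma2: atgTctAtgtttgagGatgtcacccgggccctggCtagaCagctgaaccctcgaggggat
Gsdma3: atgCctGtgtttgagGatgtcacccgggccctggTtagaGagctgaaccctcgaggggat
Against Gsdma, Gsdma2 differs at 2 of these bases and Gsdma3 at 5. The alignment to the Gsdma coding sequence was 89.7% identical for Gsdma2 and 87.6% for Gsdma3.

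Each such family carried a single gerbil value. Cycs was at 168 FPKM in gerbil and 1.45 FPKM in ICR. The same gerbil value stood beside 10 other entries, 9 of them similar in sequence to Cycs. In ICR, Gm10053 was at 17.9 FPKM, above Cycs itself, and over the identical stretch the 2 genes cannot be told apart. Summed over Cycs and the 11 similar entries of the table, the ICR level was 20.3 FPKM, and gerbil was then 7.97-fold higher in place of 69.3-fold. Gsdma, Gsdma2 and Gsdma3 all had 34.04 FPKM in gerbil, whereas in ICR Gsdma was at 70.1 FPKM, Gsdma2 at 0.0347 and Gsdma3 at 0.168. The plot of both families shows the repeated gerbil value against the uneven ICR values.

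**Figure D1:**
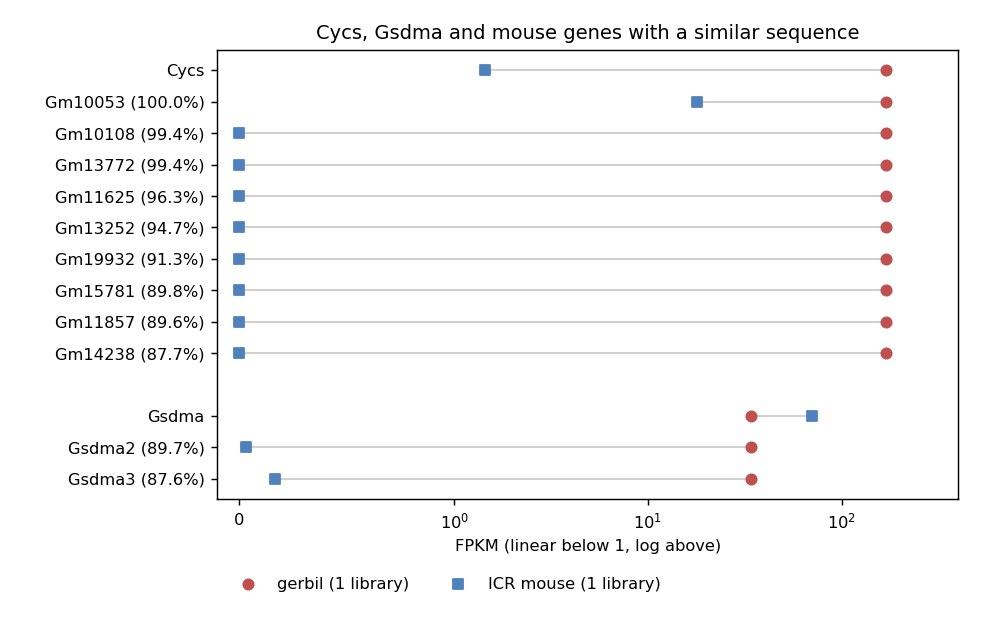
FPKM of Cycs, Gsdma and the mouse genes most similar to each, with percent identity to the Cycs or Gsdma coding sequence in brackets; circles are the gerbil library and squares the ICR library, on an axis that is linear below 1 and logarithmic above. Entries without a gerbil value are not drawn; Cycs and its 9 similar genes sit at 168 FPKM in gerbil, while of these only Gm10053 (17.9 FPKM) and Cycs (1.45 FPKM) lie above 0 in ICR.

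Sharing of this kind reached further. The gerbil value of 25 of the 32 matched genes was listed for at least 1 other entry, against 91.7% of all gerbil values in the table. For 8 genes the partner was a mouse gene similar in sequence, overlapping, or within 1 kb: Cycs, Gsdma, Mcl1, Bcl2l2, Fadd, Diablo, Ripk1 and Trp53. Fadd shared its value with the antisense gene Faddos and Diablo with the overlapping Gm15751 on the other strand, and whether the counting used strand is not given in the sources used here. For the other 17 genes the partners were neither similar nor near, and their gerbil values were 24.4 FPKM or less with 2 decimals, and whether they coincide by rounding or by 1 gerbil sequence matched to several genes cannot be told apart.

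Across the set, most genes were lower in gerbil. Of 31 measured genes 19 were lower (61.3%) and 12 higher, with a median log2 difference of -0.45. Lower were 29.6% of all measured symbols, 40.4% of protein-coding genes and 42.7% of protein-coding genes with an expectation value of 0. All measured symbols had a median of 0.87, and protein-coding genes with an expectation value of 0 had 0.21. At least 4-fold lower in gerbil were 4 genes (12.9%), Cflar, Gsdmd, Apaf1 and Bcl2l11. The background share was 5.56% of all measured symbols, 7.42% of protein-coding genes and 5.99% of protein-coding genes with an expectation value of 0. Other entries carried the gerbil value of each of the 4, 19 for Cflar, 8 for Gsdmd, 25 for Apaf1 and 15 for Bcl2l11. At least 4-fold higher were 2 genes (6.45%), Cycs and Bid, against 25.9%, 9.71% and 6.1%. Of the 31 genes, 13 lay within 2-fold (41.9%), against 39.9% of all measured symbols, 54.5% of protein-coding genes and 62.0% of protein-coding genes with an expectation value of 0. The rank order of the 31 levels in the libraries had a Spearman's rho of 0.43, a description across genes of 2 libraries. It was 0.60 for the 14054 measured protein-coding genes and 0.69 for the 11152 of them with an expectation value of 0.

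Rescaling gerbil moves every difference down. It was lowered by 0.08 on the log2 scale with a trimmed mean of log ratios, by 0.35 with the median of 48 ribosomal protein and housekeeping genes, and by 1.43 with their mean. All 3 scalings lower gerbil, so a gene described as lower could only stay lower. Of the 12 higher genes, Cycs, Bid, Birc3 and Bmf stayed higher under all 3, Tradd and Mcl1 turned lower under the median, and Casp2, Casp9, Fadd, Diablo, Birc2 and Mdm2 only under the mean.

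**Figure D2:**
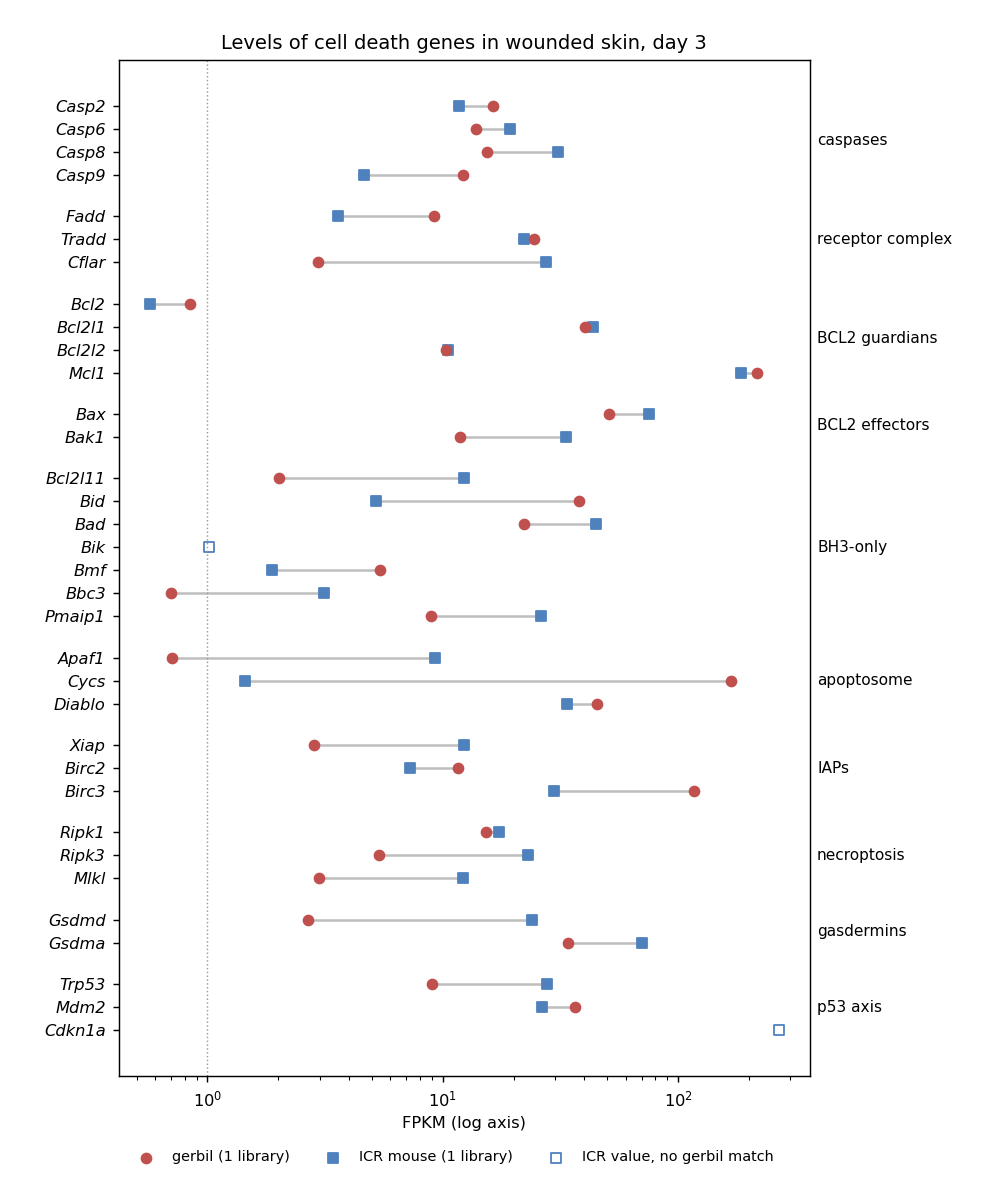
FPKM on a log axis of the 34 genes by role in wounded skin at day 3, with circles for the gerbil library and squares for the ICR library joined by a line. Open squares are Bik and Cdkn1a, which had no gerbil match; Cycs and Bid stand far to the right in gerbil, whereas Cflar, Gsdmd, Apaf1 and Bcl2l11 stand far to the left.

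Death-promoting and death-restraining genes were then set side by side. Of 24 promoting genes 23 were measured, with a median of -0.96. In gerbil 15 of them were lower (65.2%, beside the background shares given above) and 8 higher. The 8 measured restraining genes of 9 were split evenly, 4 lower and 4 higher, with a median of 0.10. The promoting median minus the restraining median was -1.06 on the log2 scale. The means lay closer, at -0.33 for promoting and -0.20 for restraining genes, a difference of -0.14. The summed level of the 23 promoting genes was near level, at 515 FPKM in gerbil and 513 FPKM in ICR, of which Cycs made up 168 FPKM in gerbil and 1.45 FPKM in ICR. With 8 genes the restraining median is loosely held. Its interval of at least 95% over ordered members is their full range, -2.86 to 1.93. That range spans the promoting interval of -1.46 to 0.41. Both intervals rest on the chosen genes and do not measure variation between animals. The restraining median was -0.24 with the median of the ribosomal protein and housekeeping genes and -1.23 with their mean. It was -0.026 with the p53 axis, Casp8 and Ripk1 left out. The promoting median remained the lower in each case, but a scaling lowers both medians together and is hardly a check of their order.

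**Figure D3:**
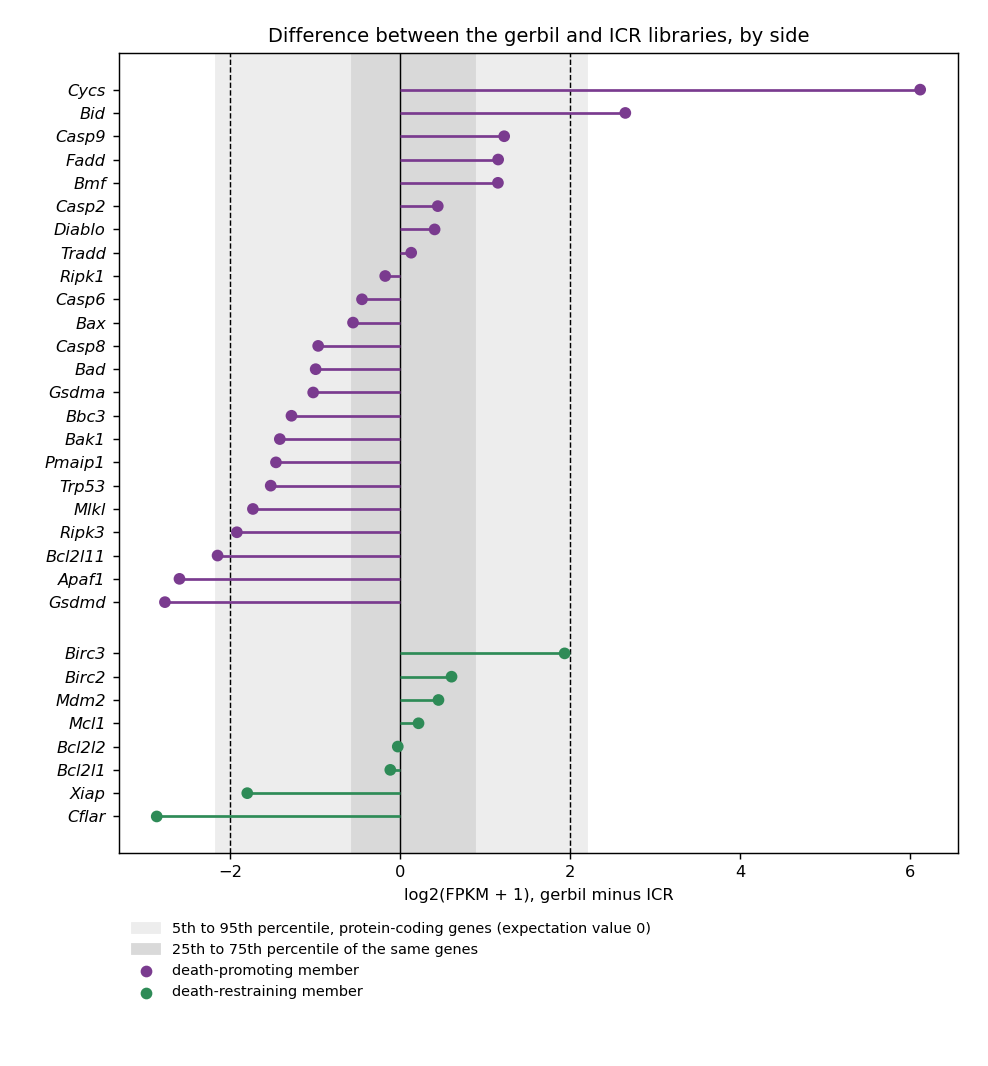
log2(FPKM + 1) in gerbil minus ICR for the 31 measured genes, promoting genes above restraining ones, with dashed lines at 4-fold and grey bands for the central range of 11152 protein-coding genes with an expectation value of 0 (25th to 75th percentile -0.56 to 0.88, 5th to 95th percentile -2.17 to 2.2). Of the promoting genes 15 lie left of 0, with Cycs (6.11) and Bid (2.65) at the other end.

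The BCL2 guardians, which bind and neutralise BAX, BAK and BH3-only proteins, were close to level. Mcl1 (chromosome 3, 95658721 to 95663176), the short-lived guardian on which neutrophils depend, was at 216 FPKM in gerbil and 185 FPKM in ICR. It was the most abundant of the 32 genes with a gerbil value and, in ICR, the second after Cdkn1a, which had no gerbil match. Bcl2l1, which encodes BCL-XL, was at 40.3 FPKM in gerbil and 43.7 FPKM in ICR, and its gerbil value stood alone in the table. Bcl2l2, encoding BCL-W, was at 10.4 FPKM in gerbil and 10.6 FPKM in ICR. All 3 lay within 2-fold, as did 54.5% of protein-coding genes and 62.0% of those with an expectation value of 0. Mcl1 made up 81% of the summed level of these guardians in gerbil and 77.4% in ICR.

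The effectors, which open the outer mitochondrial membrane, were lower in gerbil. Bax was at 50.8 FPKM in gerbil and 75 FPKM in ICR, a 1.47-fold difference. Bak1 (chromosome 17, 27019810 to 27029009) was at 11.9 FPKM in gerbil and 33.3 FPKM in ICR, or 2.66-fold lower in gerbil. Neither gerbil value was shared with another entry, and neither gene passed 4-fold.

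BH3-only genes, the sensors that carry stress signals to the BCL2 family, went in both directions. Of 6 measured, 4 were lower (66.7%, beside the background shares given above) and 2 higher. Bid (chromosome 6, 120891930 to 120916853), the link from caspase 8 to the mitochondrion, was at 37.9 FPKM in gerbil and 5.21 FPKM in ICR, 6.27-fold higher in gerbil on a value listed for no other gene. Bcl2l11, encoding BIM, a killer of leukocytes deprived of growth factors, went the other way at 2.02 FPKM in gerbil and 12.4 FPKM in ICR, 4.42-fold lower in gerbil. Among protein-coding genes ordered by level, Bid stood at rank 2174 in gerbil and 8006 in ICR, and Bcl2l11 at rank 11332 and 5255, of 14054. Bid thus ranked above Bcl2l11 in gerbil and below it in ICR, and ranks do not depend on scaling.

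The remaining BH3-only genes did not pass 4-fold. Pmaip1, encoding the p53 target NOXA, which binds MCL1, was at 8.90 FPKM in gerbil and 26.2 FPKM in ICR, with an expectation value of 8e-166. Bad, which binds BCL-XL and is silenced by survival kinases, was at 22.1 FPKM in gerbil and 44.8 FPKM in ICR. Bbc3, encoding PUMA, was near the floor at 0.70 FPKM in gerbil and 3.12 FPKM in ICR on a match of 7e-90. Bmf, a sensor of lost attachment, was higher in gerbil, at 5.41 FPKM in gerbil and 1.89 FPKM in ICR. Bik, at 1.02 FPKM in ICR, had no gerbil match.

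Ratios within a library do not change with scaling between libraries. The summed level of the 8 measured effectors and BH3-only genes was 140 FPKM in gerbil and 202 FPKM in ICR, and that of the 3 guardians 266 FPKM in gerbil and 240 FPKM in ICR. Their ratio was 0.525 in gerbil and 0.843 in ICR. It was 0.382 in gerbil and 0.821 in ICR without Bid, and 2.76 in gerbil and 3.72 in ICR without Mcl1. Restricted to gerbil values listed for no other gene, which leaves Bcl2l1 as the guardian, the ratio in gerbil was 0.961 of that in ICR, with Bax, Bak1 and Bid as the promoting genes.

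**Figure D4:**
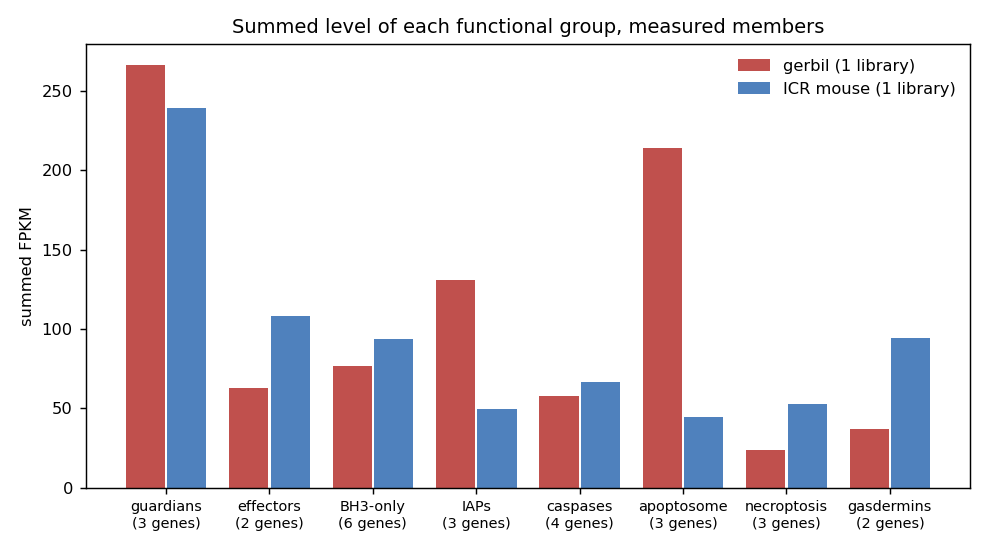
Summed FPKM of the measured genes in each functional group, with bars from 0 for the gerbil library (left) and the ICR library (right) and the number of genes under each group. Of the groups drawn, guardians have the highest sum in both libraries (266 FPKM in gerbil, 240 FPKM in ICR), the apoptosome group stands at 214 FPKM in gerbil and 44.6 FPKM in ICR, most of the gerbil sum being Cycs, IAPs stand higher in gerbil (131 FPKM in gerbil, 49.3 FPKM in ICR, as deposited and not after scaling to the mean of the ribosomal protein and housekeeping genes), and effectors, necroptosis genes and gasdermins stand lower in gerbil.

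The 3 apoptosome genes differed widely in both directions. Apaf1 (chromosome 10, 90989311 to 91082770), the scaffold of the complex, was at 0.71 FPKM in gerbil and 9.31 FPKM in ICR, 6.03-fold lower in gerbil. That gerbil value was below 1 FPKM and was also listed for 25 other entries. Cycs, the activator of Apaf1, was higher in gerbil, as given above. Diablo, encoding SMAC, which leaves the mitochondrion with cytochrome c and blocks IAPs, was at 45.2 FPKM in gerbil and 33.8 FPKM in ICR.

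Of 4 caspases 3 lay within 2-fold (75%), beside 54.5% of protein-coding genes and 62.0% of those with an expectation value of 0. Casp9 was 2.34-fold higher in gerbil. The Casp9 difference of 1.22 was 0.83 with a pseudocount of 5 and 0.90 with the median of the ribosomal protein and housekeeping genes, both within 2-fold, and turned negative with their mean. Casp9, the initiator activated on the apoptosome, was at 12.2 FPKM in gerbil and 4.64 FPKM in ICR. Casp8, the initiator of the death receptor route and a brake on necroptosis, was at 15.4 FPKM in gerbil and 31.0 FPKM in ICR. Casp2, linked to DNA damage and centrosome stress, was at 16.4 FPKM in gerbil and 11.8 FPKM in ICR, and the effector Casp6 at 13.9 FPKM in gerbil and 19.3 FPKM in ICR. None passed 4-fold. Apaf1 and Casp9 differed in opposite directions, so their ratio was 0.0583 in gerbil, with Apaf1 below 1 FPKM there, and 2.01 in ICR. This and the pair ratios below were chosen after the values were seen.

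At the death receptor complex the inhibitor stood out. Cflar (chromosome 1, 58711508 to 58758884) encodes cFLIP, the caspase-like protein without protease activity that takes caspase 8's place in the complex. It was at 2.94 FPKM in gerbil and 27.6 FPKM in ICR, 7.26-fold lower in gerbil, and was the lowest of the 31 differences at -2.86. The pseudogene Gm9845, identical to Cflar over 597 bases, was at 1.15 FPKM in gerbil and 1.74 FPKM in ICR. The ratio of Cflar to Casp8 was 0.191 in gerbil and 0.890 in ICR. Fadd, the adaptor that recruits caspase 8, was at 9.2 FPKM in gerbil and 3.59 FPKM in ICR, and Tradd, the adaptor of the tumour necrosis factor receptor, at 24.4 FPKM in gerbil and 22.2 FPKM in ICR.

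The IAPs differed in direction among themselves. Birc3 (chromosome 9, 7848699 to 7873186), encoding cIAP2, a ubiquitin ligase of RIPK1 and a target of NF-kappaB, was at 116 FPKM in gerbil and 29.7 FPKM in ICR. At 3.82-fold it lay just under the 4-fold rule, on a value listed for no other gene. Its neighbour Birc2, encoding cIAP1, was at 11.6 FPKM in gerbil and 7.27 FPKM in ICR. Xiap, the IAP that directly inhibits caspases, was at 2.84 FPKM in gerbil and 12.3 FPKM in ICR, 3.47-fold lower in gerbil. The table also lists 3 Xiap pseudogenes at 3.04 FPKM in gerbil and at 0 in ICR. Birc3 was 89.0% of the summed IAP level in gerbil and 60.3% in ICR. That sum was 2.65-fold higher in gerbil, which the mean of the ribosomal protein and housekeeping genes, at 2.69-fold, would turn lower.

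All 3 necroptosis genes were lower in gerbil, beside 40.4% of protein-coding genes, and by unequal amounts. Ripk1, the kinase shared between survival, apoptosis and necroptosis, was near level at 15.2 FPKM in gerbil and 17.3 FPKM in ICR. Ripk3 (chromosome 14, 55784996 to 55788857), the kinase that commits a cell to necroptosis, was at 5.34 FPKM in gerbil and 22.9 FPKM in ICR, 3.78-fold lower in gerbil. Mlkl (chromosome 8, 111311797 to 111338177), which RIPK3 phosphorylates and which breaks the plasma membrane, was at 2.99 FPKM in gerbil and 12.2 FPKM in ICR, 3.31-fold lower. Ripk3 relative to Ripk1 was 0.351 in gerbil and 1.33 in ICR, whereas Mlkl relative to Ripk3 was similar, at 0.560 in gerbil and 0.533 in ICR.

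Gasdermins form the membrane pores of pyroptosis, another lytic death. Gsdmd (chromosome 15, 75862339 to 75867404), cut by inflammatory caspases and the gasdermin through which interleukin-1 beta is released, was at 2.69 FPKM in gerbil and 24.0 FPKM in ICR, 6.79-fold lower in gerbil. Gsdma, the gasdermin of skin keratinocytes, was at 34.04 FPKM in gerbil and 70.1 FPKM in ICR, 2.03-fold lower, on the value that its paralogs share.

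In the p53 axis, Trp53 was at 9 FPKM in gerbil and 27.7 FPKM in ICR. Its match was the weakest of the set, with an expectation value of 4e-48. Its gerbil value was also that of Wrap53, matched at 0, which lies on the other strand of chromosome 11 with 103 bases between the genes. Whether the gerbil value is that of Trp53 or of Wrap53 cannot be told apart. Mdm2, the ubiquitin ligase that degrades p53 and is itself a p53 target, was at 36.5 FPKM in gerbil and 26.4 FPKM in ICR on a value of its own. Cdkn1a, encoding the cell cycle inhibitor p21, was the most abundant gene of the set in ICR at 268 FPKM and could not be compared.

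Values of cell type markers stand beside these differences. In a bulk sample, fewer cells of a type and less RNA per cell cannot be told apart. Single genes carry several of these sums, so each is given also without the marker of the widest gap, chosen after the values were seen. The 8 keratinocyte markers summed to 36348 FPKM in gerbil and 14888 FPKM in ICR, where Krt14 was listed at 0. Without Krt14 they summed to 17877 FPKM in gerbil and 14888 FPKM in ICR. Most of that gerbil sum was Krt5, at 11792.5 FPKM in gerbil and 4284 FPKM in ICR, on a gerbil value shared with other entries. The median log2 difference of the 8 was -0.20. Krt10, Krtdap and Trp63 were at least 4-fold lower in gerbil and Krt14 at least 4-fold higher. Of 8 neutrophil markers 6 had a gerbil value, and these summed to 302 FPKM in gerbil and 212 FPKM in ICR, with a median of -0.35. Without Fpr1 the order turned, at 161 FPKM in gerbil and 183 FPKM in ICR. S100a8 and S100a9 had no gerbil match. Macrophage markers, 5 of 7 with a gerbil value, summed to 1861 FPKM in gerbil and 1540 FPKM in ICR, with a median of 0.51. Without Itgam, whose gerbil value stood beside several entries, the order turned too, at 1064 FPKM in gerbil and 1469 FPKM in ICR. Fibroblast markers summed to 1685 FPKM in gerbil and 3538 FPKM in ICR, with a median of -0.46, and were near level without Col3a1, at 1684 FPKM in gerbil and 1743 FPKM in ICR. Col3a1 itself was at 1.37 FPKM in gerbil and 1794 FPKM in ICR on a match of 9e-14. T and NK cell markers, 5 of 6 matched, summed to 37.95 FPKM in gerbil and 7.94 FPKM in ICR, with a median of 0.59, and to 12.6 FPKM in gerbil and 6.53 FPKM in ICR without Nkg7. Erythroid markers, 4 of 4 matched, summed to 2238 FPKM in gerbil and 740.2 FPKM in ICR, with a median of 0.63, and to 1261 FPKM in gerbil and 695 FPKM in ICR without Hbb-bt. Adipocyte markers, 4 of 4 matched, summed to 109 FPKM in gerbil and 243 FPKM in ICR, with a median of -0.014, and to 15.1 FPKM in gerbil and 13.3 FPKM in ICR without Fabp4. Skeletal muscle markers, 4 of 5 matched, summed to 322 FPKM in gerbil and 176 FPKM in ICR, with a median of 0.74, and to 145 FPKM in gerbil and 105 FPKM in ICR without Mylpf. Endothelial markers, 4 of 5 matched, summed to 32.7 FPKM in gerbil and 17.7 FPKM in ICR, with a median of 0.48, and to 10.8 FPKM in gerbil and 7.001 FPKM in ICR without Pecam1. Their part in the differences was not tested.

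Among other genes of the same pathways, differences went both ways. A list of 66 symbols had 59 measured genes, 30 lower (50.8%) and 29 higher in gerbil, with a median of -0.04, and 31 within 2-fold (52.5%). At least 4-fold lower were 5 (8.47%) and at least 4-fold higher 4 (6.78%), beside the background shares given above. The lower ones were Trp63, Gsdmc, Zbp1, Pgam5 and Sesn1. Trp63, the p53 relative that maintains basal keratinocytes, was at 1.59 FPKM in gerbil and 57.6 FPKM in ICR. Gsdmc, a gasdermin of epithelia, was at 7.96 FPKM in gerbil and 190 FPKM in ICR, and Zbp1, the nucleic acid sensor that engages RIPK3, at 1.85 FPKM in gerbil and 28.5 FPKM in ICR. Of these 5, Gsdmc alone had an expectation value of 0. Sesn1, a stress-induced p53 target, was at 2.36 FPKM in gerbil and 22.8 FPKM in ICR on a match of 2e-97, and Pgam5, a mitochondrial phosphatase, at 1.04 FPKM in gerbil and 17.3 FPKM in ICR on a match of 2e-11.

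Each gene past 4-fold on the gerbil side of that list carried a value shared with a paralog. Bcl2a1a, Bcl2a1b and Bcl2a1d, copies of the guardian A1 of neutrophils, all had 20.2 FPKM in gerbil, against 1.85, 24.0 and 4.01 FPKM in ICR, so Bcl2a1a and Bcl2a1d passed 4-fold and Bcl2a1b was near level. The others were Gsdma2 and Gsdma3. Fas, the death receptor upstream of Fadd and Casp8, was at 40.3 FPKM in gerbil and 10.8 FPKM in ICR, 3.51-fold higher in gerbil. Casp1, Casp4 and Casp12, the inflammatory caspase group, had no gerbil match and were at 11.7, 14.5 and 4.34 FPKM in ICR.

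The calls were then followed over the settings that can alter a single difference, which are the 2 other pseudocounts, the 3 scalings and, for Cycs, the summing with its similar genes. Cflar was at least 4-fold lower in gerbil in 5 of 5 and Cycs at least 4-fold higher in 6 of 6. For Cycs, the summed ICR level entered the summing setting alone. It was not combined with a scaling or another pseudocount, so the call was not followed there. Gsdmd, Bcl2l11 and Apaf1 each passed in 4 of 5 and missed with a pseudocount of 5. Bid passed in 4 of 5 and missed with the mean of the ribosomal protein and housekeeping genes. Ripk3 and Xiap, under 4-fold as reported, passed in 3 of 5.

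**Figure D5:**
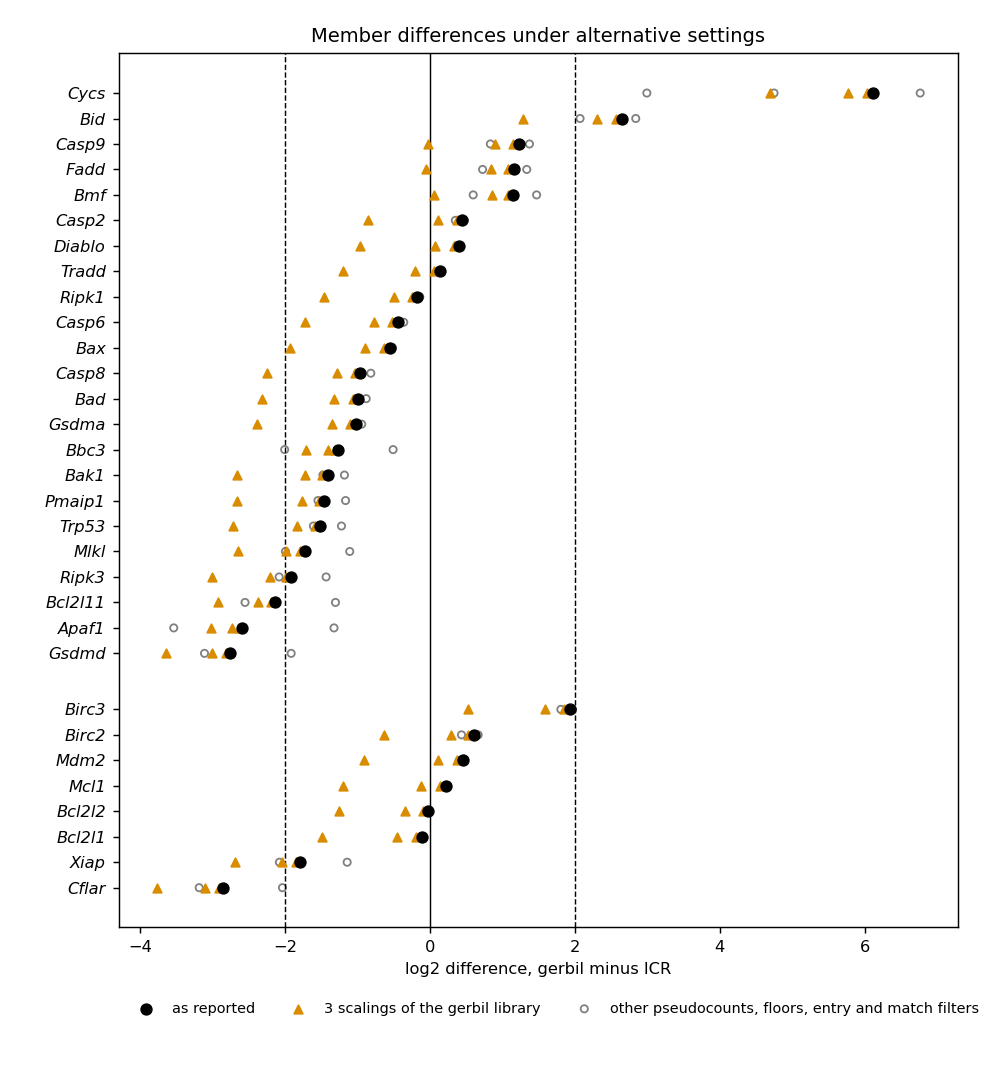
log2 difference, gerbil minus ICR, of the 31 measured genes under each setting, with filled circles as reported, triangles for the 3 scalings and open circles for other pseudocounts, floors and filters, and dashed lines at 4-fold. Cflar lies left of -2 in every setting (-3.77 to -2.04) and Cycs right of 2 (2.99 to 6.77).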

How the data were processed

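RNA was sequenced from 1 gerbil and 1 ICR library, grouped by the sample labels. The authors deposited FPKM for both, per the file headers, and the header places the gerbil values after assembly. The expectation value beside each gerbil FPKM is the deposited one. Named in the submitters' processing notes, with no role, are STAR 2.4.0b, Cufflinks 2.2.1, RSEM 1.2.19, CASAVA and the build GRCm38.p2. Which assembler and which search program made the gerbil matches is not given in the sources used here. With no read numbers, depth is unknown and limits the precision of low values. Coordinates are the table's, on GRCm38.

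Of 41214 entries, 40993 had an ICR and 21056 a gerbil value. Where a symbol had several entries, that with the highest mean stood for it. Pseudocount (1 FPKM), floor (1 FPKM) and the 4-fold rule applied to all 20089 measured symbols. The procedure was tested on simulated data. Gene types and sequences came from GENCODE M21, and similar genes from blastn 2.17.0 of coding sequences (at least 80% identity over at least 100 bases). The members, roles and lists were chosen with earlier results of these data known. All members were described, and of the other pathway genes the 8 with the largest difference at 10 FPKM or more in a library, plus Fas; a few genes under this rule are not reported here. Inflammatory caspases and the paralogs Bcl2a1b and Bcl2a1d were named after their values were seen. Software was pandas 2.3.3, scipy 1.17.1 and numpy 2.4.6 under Python 3.11.15. Alternatives were other pseudocounts, floors, scalings, size rules, entry handling and match filters.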

Additional observations from a re-analysis of the deposited data

How the results depend on the processing

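No paired analysis was possible because a species has a single library, and leaving libraries out was not run for the same reason. The mean scaling, the summing of Cycs with its similar genes, the ratios without Mcl1 or Bid and the removal of genes whose value a copy or neighbour carries were chosen after seeing the data. Why values shifted was not tested, beyond filters and size rules changing the number of genes by construction. Unshared gerbil values, those of a single entry, leave 4 promoting and 3 restraining genes and favour high gerbil levels. Counts are at least 4-fold unless another size is named. Lower members numbered 4 of 31 as reported, 7 with a pseudocount of 0.1, 1 with a pseudocount of 5, 0 of 7 with unshared gerbil values, 12 at 2-fold, 0 at 8-fold and 13 with the mean scaling. Higher members numbered 2 as reported, 6 at 2-fold, and 1 with unshared gerbil values, at 8-fold, without genes whose value a copy or neighbour carries, and with the mean scaling. All genes higher in gerbil numbered 5199 of 20089 as reported (25.9%), 8258 with a pseudocount of 0.1 (41.1%) and 3322 with 5 (16.5%). They numbered 801 of 11564 with 1 FPKM in both libraries (6.93%) and 2152 of 12975 with an expectation value of 0 (16.6%). With unshared values they were 130 of 1743 (7.46%), and among protein-coding genes 1365 of 14054 (9.71%). At 2-fold they numbered 9488 (47.2%), at 8-fold 3842 (19.1%) and with the mean scaling 3579 (17.8%). All genes lower in gerbil numbered 1116 as reported (5.56%), 1463 with a pseudocount of 0.1 (7.28%) and 557 with 5 (2.77%). They numbered 684 with an expectation value of 0 (5.27%), 36 with unshared values (2.07%), 2591 at 2-fold (12.9%) and 505 at 8-fold (2.51%). With the mean scaling they were 2748 (13.7%), which moved the gerbil share of all calls to 56.6%, against 82.3% as deposited. Other pathway genes higher numbered 4 of 59 as reported, 2 with a pseudocount of 5, with 1 FPKM in both libraries, at 8-fold and with the mean scaling, 0 of 14 with unshared values and 13 at 2-fold. Those lower numbered 5 as reported, 3 with a pseudocount of 5, 10 with the median scaling, 1 of 48 with an expectation value of 0, 0 of 14 with unshared values, 15 at 2-fold and 16 with the mean scaling. The promoting median was -0.96 as reported, -1.94 with the mean scaling, -0.50 with an expectation value of 0, -0.52 with a pseudocount of 5 and -0.55 with 1 FPKM in both libraries. The restraining median was -0.24 with the median scaling, -1.23 with the mean scaling and -0.026 without Casp8, Ripk1 and the p53 axis. The promoting median minus the restraining one was negative in every setting run, between -1.21 with unshared values and -0.60 with an expectation value of 0. Scalings lower both medians together, so they bear little on this difference. The gerbil over ICR ratio of BCL2 family ratios was 0.623 as reported and 0.961 with unshared values. Filters leave a single gene's difference as it is, so single genes are followed over the pseudocounts, scalings and summed Cycs genes alone. Of 156 such values 138 kept their call and 18 gained or lost it. No gene past 4-fold changed sign, which none of these settings could bring about for a lower gene.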
